A study of Rattus norvegicus with 60 samples.

Results

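The urea cycle and glutamine enzymes were taken as 10 genes by symbol, out of 34322 genes counted in rat liver and mesenteric adipose tissue: Cps1, Otc, Ass1, Asl, Arg1, Nags, Slc25a15, Gls2, Glul and Got1. All 10 were found in the count tables. The animals were Sprague-Dawley rats bred in house and sampled at 5 months of age, of both sexes. Prenatal alcohol exposure (PAE) was ethanol vapor given to the pregnant dam in a chamber from gestational day 8 to 20, and control dams breathed room air in the chamber. Stroke rats of either exposure were killed 2 days after occlusion of the middle cerebral artery, and stroke-naive littermates had no stroke; the labels do not say whether naive rats had a sham operation. Each tissue had PAE stroke (n = 8), PAE naive (n = 8), control stroke (n = 7) and control naive (n = 7) libraries, of which 4 per group were from females and the rest from males. The labels do not tie libraries to litters, so each library was taken as independent, which is an assumption.

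The urea cycle turns ammonia and the nitrogen of amino acids into urea, mainly in hepatocytes of the periportal zone. Carbamoyl phosphate and citrulline are made in the mitochondrion, and the later steps run in the cytosol. Ammonia that escapes is captured as glutamine by hepatocytes that surround the central vein, where glutamine synthetase is confined. Fasting, glucagon, glucocorticoids and protein breakdown are known to raise urea cycle enzymes in rat liver.

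Liver libraries held 7.72 to 30.4 M counts (median 17.4 M) and adipose libraries 9.81 to 25.4 M (median 16.4 M). Nuclear ribosomal RNA left after depletion took 1.09 to 51.1% of counts in stroke livers and 0.626 to 44.9% in naive livers. It was above 40% in 3 liver libraries, those of control stroke male 1, PAE stroke male 2 and control naive male 3, and in 1 adipose library, that of PAE naive female 1. The 12 hepatocyte markers summed to 104647 to 184192 CPM (counts scaled to 1 M per library) in liver and to 240 to 597 CPM in adipose libraries, and 12 adipocyte markers to 11497 to 27909 CPM in adipose libraries. CPM values use the scaled library size, and levels are compared between samples of 1 gene and not between genes.

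The RefSeq promoter table (GRCr8) held 9 of the 10 genes, in 11 entries, with 2 entries each for Gls2 and Glul; Arg1 had no entry. Shown first are the 120 bases before the start of Got1, the member with the largest liver change, of Glul (first entry), the member that fell, of Otc, and of Cps1, the gene of the first enzyme of the cycle. Each is the gene's own strand, 5′ to 3′, and capitals mark a match on either strand to one of the motifs searched.
Got1, chr1:252329872-252329991, minus strand: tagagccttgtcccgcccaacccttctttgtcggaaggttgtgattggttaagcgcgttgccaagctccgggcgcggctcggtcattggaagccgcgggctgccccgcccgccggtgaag
Glul, chr13:68519380-68519499, plus strand: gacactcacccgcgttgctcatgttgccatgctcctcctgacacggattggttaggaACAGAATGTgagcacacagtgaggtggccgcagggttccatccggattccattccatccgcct
Otc, chrX:15202474-15202593, minus strand: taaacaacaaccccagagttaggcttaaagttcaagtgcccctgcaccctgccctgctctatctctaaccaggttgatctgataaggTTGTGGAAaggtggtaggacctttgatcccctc
Cps1, chr9:76063743-76063862, plus strand: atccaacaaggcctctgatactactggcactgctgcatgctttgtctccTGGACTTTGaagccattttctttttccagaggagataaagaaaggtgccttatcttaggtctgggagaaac

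The capitals in Cps1 match the HNF4 motif CAAAGTCCA on the reverse strand, at −71 to −63 from the start, and HNF4 is a liver nuclear receptor. That motif was in 0.39% of 33469 promoters of 300 bases. The capitals in Glul match the glucocorticoid response element core ACANNNTGT at −63 to −55, and this core was in 6.86% of promoters. Cps1 held the same core at −233 to −225, outside the stretch printed. The capitals in Otc match the C/EBP motif TTNNGNAA at −33 to −26, with a further match at −169 to −162, and Slc25a15 held the motif at −219 to −212 and −173 to −166. C/EBP proteins are liver transcription factors, and this short motif was in 41.3% of promoters. In the first Gls2 entry the STAT motif TTCNNNGAA lay at −216 to −208, and the short core TGACG of the cAMP response element lay at −224 to −220 and at −166 to −162. These were in 8.87% and 21.2% of promoters. TGACG also lay after the start, at 24 to 28 in the first Glul entry and at 32 to 36 in Nags. TATAAA, in 14.2% of promoters, lay on the reverse strand of Ass1 at −60 to −55. None of the searched motifs, which also included TATAAA and TGACGTCA, lay in the 300 bases of Got1, Asl or the second entries of Gls2 and Glul. A match is a run of letters and not a measured binding site.

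In stroke livers 6 of the 10 genes differed from naive livers over both exposures: Arg1, Got1, Slc25a15, Otc and Gls2 rose and Glul fell. The test was edgeR's quasi-likelihood test with Benjamini-Hochberg adjustment over 15889 genes, with the sexes and exposures weighted equally, and a gene was called at an adjusted p under 0.05. The same test called 14.4% of all genes, 8.55% higher and 5.84% lower. The estimate was above 0 for 9 of the 10 genes, with a median log2 change of 0.52, against −0.01 over all genes tested. Whole tissue was measured, so that more cells of a type and more RNA per cell cannot be told apart.

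**Figure D1:**
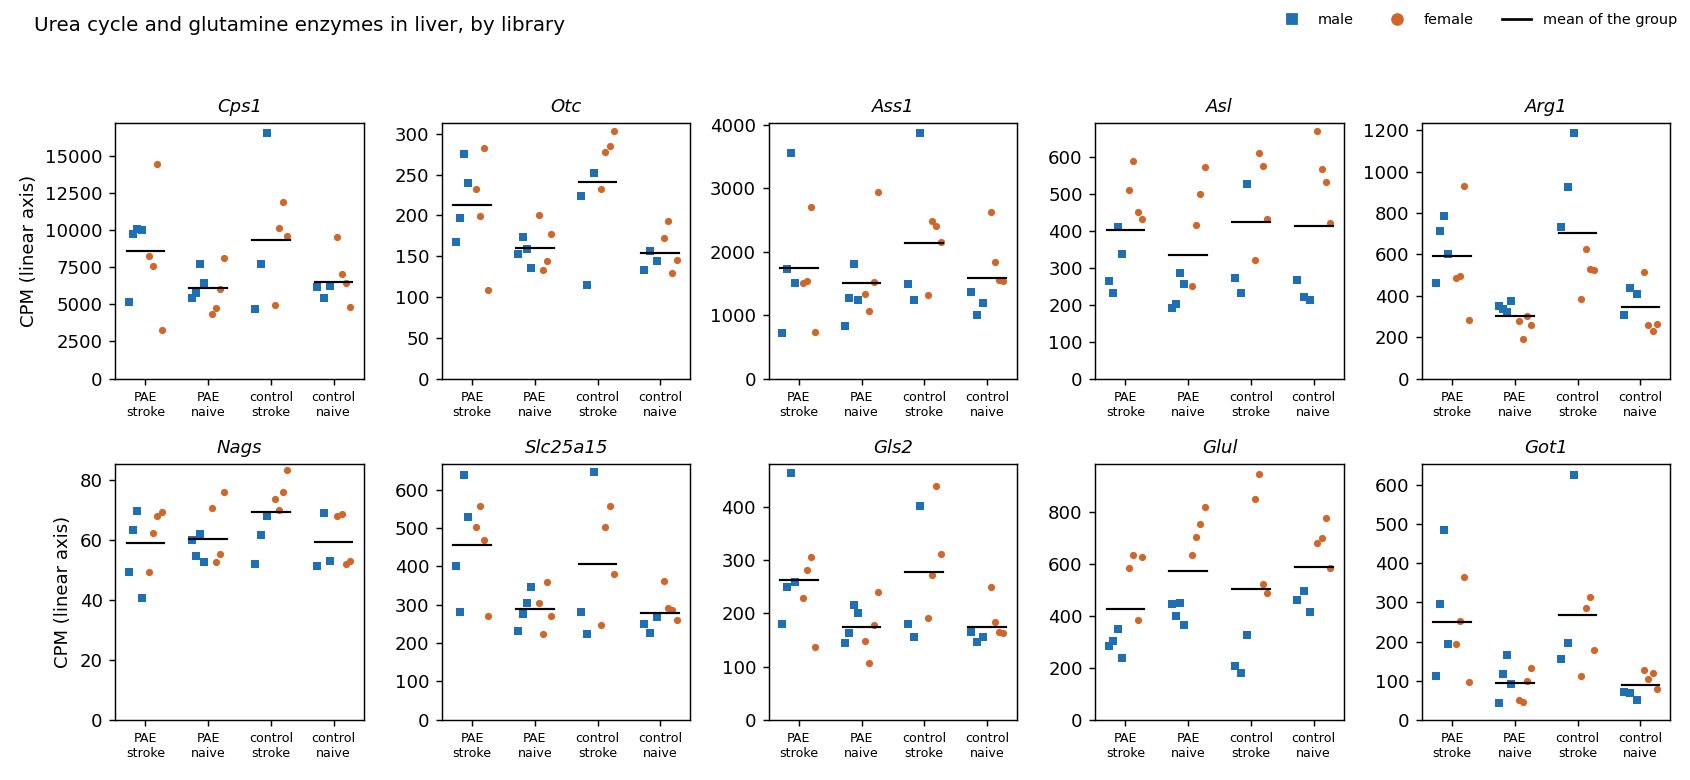
Liver level of the 10 genes in CPM (linear axes) in each library, in PAE stroke, PAE naive, control stroke and control naive groups from left to right; squares are males, circles females and lines group means. The stroke points of Arg1 and Got1 sit mostly above the naive points in both exposures, and those of Glul extend below them.

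Of the mitochondrial steps, Slc25a15 and Otc passed the test and Cps1 and Nags did not. Slc25a15, the carrier that brings ornithine into the mitochondrion, had 225, 470 and 646 CPM (lowest, median and highest) in 15 stroke livers, against 222, 277 and 362 CPM in 15 naive livers. Of the stroke livers, 10 lay above the highest naive liver, while the lowest values of both groups were close together. Its log2 change was 0.61 ± 0.15 (SE, adjusted p = 0.00534), or 1.52-fold. Otc, ornithine transcarbamylase, which joins carbamoyl phosphate to ornithine, had 109, 232 and 304 CPM in stroke livers, against 129, 153 and 201 CPM in naive livers. Here too 10 stroke livers lay above every naive liver, but the lowest value of all was a stroke liver. The log2 change of Otc was 0.51 ± 0.12 (adjusted p = 0.00373).

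Cps1, carbamoyl phosphate synthetase, the entry enzyme of the cycle, had 3269, 9604 and 16584 CPM in stroke livers, against 4362, 6152 and 9530 CPM in naive livers. Stroke livers were spread more widely on both sides, with 8 above the highest naive liver and 1 below the lowest. Its log2 change of 0.52 ± 0.19 missed the threshold (adjusted p = 0.0576). It passed without the 3 libraries above 40% ribosomal RNA (0.61, adjusted p = 0.0454) and with DESeq2 (0.52, adjusted p = 0.0288). Nags, which makes the N-acetylglutamate that Cps1 needs as activator, had 40.5, 68.0 and 83.3 CPM in stroke livers, against 51.5, 55.2 and 76.1 CPM in naive livers, and its log2 change of 0.08 ± 0.09 was within the spread (adjusted p = 0.593).

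Of the cytosolic steps, Arg1 rose, and the values of Ass1 and Asl overlapped between groups. Arg1, arginase 1, which splits arginine into urea and ornithine, had 281, 601 and 1187 CPM in stroke livers, against 191, 307 and 516 CPM in naive livers. Each of the 15 stroke livers was higher than the mean of naive livers matched for exposure and sex, and 10 lay above the highest naive liver. The log2 change was 0.997 ± 0.142 (adjusted p = 1.55e-05), or 2.00-fold. Ass1, argininosuccinate synthetase, which joins citrulline to aspartate, had 719, 1542 and 3876 CPM in stroke livers, against 832, 1372 and 2939 CPM in naive livers. Its log2 change was 0.38 ± 0.22 (adjusted p = 0.28). Asl, argininosuccinate lyase, which releases arginine and fumarate, had 232, 432 and 612 CPM in stroke livers, against 191, 285 and 670 CPM in naive livers. Its log2 change was 0.25 ± 0.13 (adjusted p = 0.23).

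Got1, cytosolic aspartate aminotransferase, which exchanges nitrogen between glutamate and aspartate, had the largest change of the 10 genes. It had 96.1, 196 and 625 CPM in stroke livers, against 42.2, 92.0 and 166 CPM in naive livers. As for Arg1, no stroke liver was below its matched naive mean, and 11 lay above the highest naive liver. The log2 change was 1.57 ± 0.27 (adjusted p = 0.000238), or 2.96-fold. Got2, the mitochondrial isoenzyme, had 261, 448 and 550 CPM in stroke livers, against 276, 346 and 428 CPM in naive livers, and rose by 0.28 ± 0.08 on the log2 scale (adjusted p = 0.0177). Slc25a13, the mitochondrial carrier that exports aspartate, had a log2 change of 0.00 ± 0.08 (adjusted p = 1).

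The enzymes at either end of glutamine turnover moved in opposite directions. Gls2, the liver glutaminase that releases ammonia from glutamine in periportal cells, had 137, 260 and 463 CPM in stroke livers, against 107, 164 and 249 CPM in naive livers. Its log2 change was 0.63 ± 0.16 (adjusted p = 0.00846), or 1.54-fold, and 9 stroke livers lay above every naive liver. Glul, glutamine synthetase, had 182, 383 and 946 CPM in stroke livers, against 366, 584 and 819 CPM in naive livers. Its log2 change was −0.45 ± 0.11 (adjusted p = 0.00463). Of the stroke livers, 13 of 15 lay below the naive mean of their own exposure and sex and 7 lay below the lowest naive liver, but the highest value was also a stroke liver. The call of Glul was lost when the sexes were pooled into 1 mean (−0.32, adjusted p = 0.368). Arg2, the arginase of other tissues, had 0 to 1.52 CPM in liver and did not pass the filter on low counts.

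**Figure D2:**
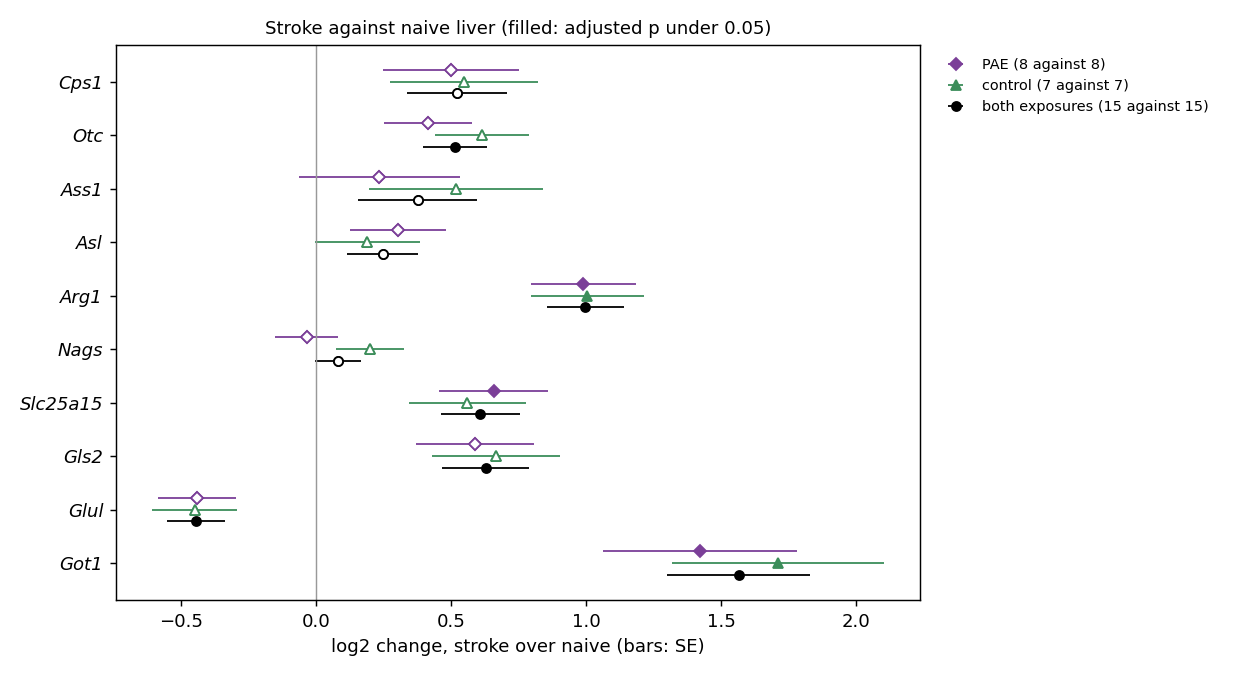
Log2 change of the 10 genes in stroke against naive livers, in PAE livers, in control livers and over both exposures; bars are standard errors and filled symbols have an adjusted p under 0.05. Arg1 and Got1 are filled in all 3 comparisons, and all 3 estimates of Glul lie below 0.

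Taken by exposure, 3 genes were called in PAE livers and 2 in control livers. In PAE livers the test called 7% of all genes, 4.74% higher and 2.26% lower, and Arg1, Got1 and Slc25a15, all higher, among the 10. Arg1 had 281, 549 and 932 CPM in PAE stroke livers, against 191, 313 and 374 CPM in PAE naive livers, with a log2 change of 0.99 ± 0.19 (adjusted p = 0.00177). Got1 had 96.1, 223 and 485 CPM in PAE stroke livers, against 42.2, 95.8 and 166 CPM in PAE naive livers, with a log2 change of 1.42 ± 0.36 (adjusted p = 0.0167). Slc25a15 had 271, 486 and 638 CPM in PAE stroke livers, against 222, 290 and 360 CPM in PAE naive livers, with a log2 change of 0.66 ± 0.20. Its adjusted p of 0.0437 was near the threshold, and it was no longer called when any 1 of 16 libraries was left out. Glul had a log2 change of −0.44 ± 0.14 in PAE livers (adjusted p = 0.0606).

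In control livers the test called 2.95% of all genes, 2% higher and 0.95% lower, and Arg1 and Got1, both higher, among the 10. Arg1 had 384, 628 and 1187 CPM in control stroke livers, against 228, 307 and 516 CPM in control naive livers, with a log2 change of 1.004 ± 0.209 (adjusted p = 0.00576). Got1 had 112, 196 and 625 CPM in control stroke livers, against 50.8, 77.5 and 127 CPM in control naive livers, with a log2 change of 1.71 ± 0.39 (adjusted p = 0.0157). The highest Got1 value was in control stroke male 3, which also had the highest Cps1, Ass1, Arg1 and Slc25a15 values of the 30 livers. Without it the log2 change of Got1 was 1.26 (adjusted p = 0.0643), and without control naive male 3 it was 1.63 (adjusted p = 0.0584). Otc had a log2 change of 0.61 ± 0.18 (adjusted p = 0.052) and Glul one of −0.45 ± 0.16 (adjusted p = 0.121) in control livers. In the authors' deposited table, Otc (log2 change 0.58, adjusted p = 0.00696), Arg1 (0.84, 0.000488) and Got1 (1.19, 0.000143) were below 0.05 in control livers. The same authors' deposited table had Arg1 (0.89, adjusted p = 4.23e-05), Got1 (1.10, 0.000688), Slc25a15 (0.59, 0.00993) and Glul (−0.44, 0.00295) below 0.05 in PAE livers.

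No gene of the 10 was called between PAE and control livers. Among naive livers the log2 difference, PAE over control, lay between −0.22 for Arg1 and 0.17 for Got1, and 0 of the 10 had an unadjusted p under 0.05. Among stroke livers it lay between −0.30 for Ass1 and 0.18 for Slc25a15, again with 0 of 10 at an unadjusted p under 0.05. The response to stroke in PAE livers minus that in control livers lay between −0.29 ± 0.52 for Got1 and 0.11, also with 0 of 10. edgeR called 0 of the 15889 genes in each of these comparisons, a background of 0%, and DESeq2 called 0 of the 10. Arg1 averaged 595 ± 207 CPM in PAE stroke livers and 701 ± 275 CPM in control stroke livers (SD between libraries, n = 8 and 7), and the test did not call this difference.

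The liver levels of Glul, Asl and Arg1 differed between the sexes, over both exposures and stroke states. The test called 32.5% of all genes between males and females, 16% higher and 16.5% lower in males. The 3 calls among the 10 genes were no more than that share. Glul had 182, 358 and 496 CPM in 14 male livers, against 383, 658 and 946 CPM in 16 female livers, a log2 difference of −0.97 ± 0.11 (adjusted p = 4.41e-08), or 1.95-fold lower in males. All 14 males lay below the female mean of their own exposure and stroke state. Asl had 191, 259 and 529 CPM in male livers, against 252, 506 and 670 CPM in female livers, a log2 difference of −0.82 ± 0.13 (adjusted p = 2.12e-05), or 1.77-fold lower in males. Arg1 ran the other way, with 307, 450 and 1187 CPM in male livers, against 191, 344 and 932 CPM in female livers, a log2 difference of 0.45 ± 0.14 (adjusted p = 0.0147). Of the males, 13 of 14 lay below the female mean of their own group for Asl and 12 of 14 above it for Arg1. The other 7 genes were not called.

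**Figure D3:**
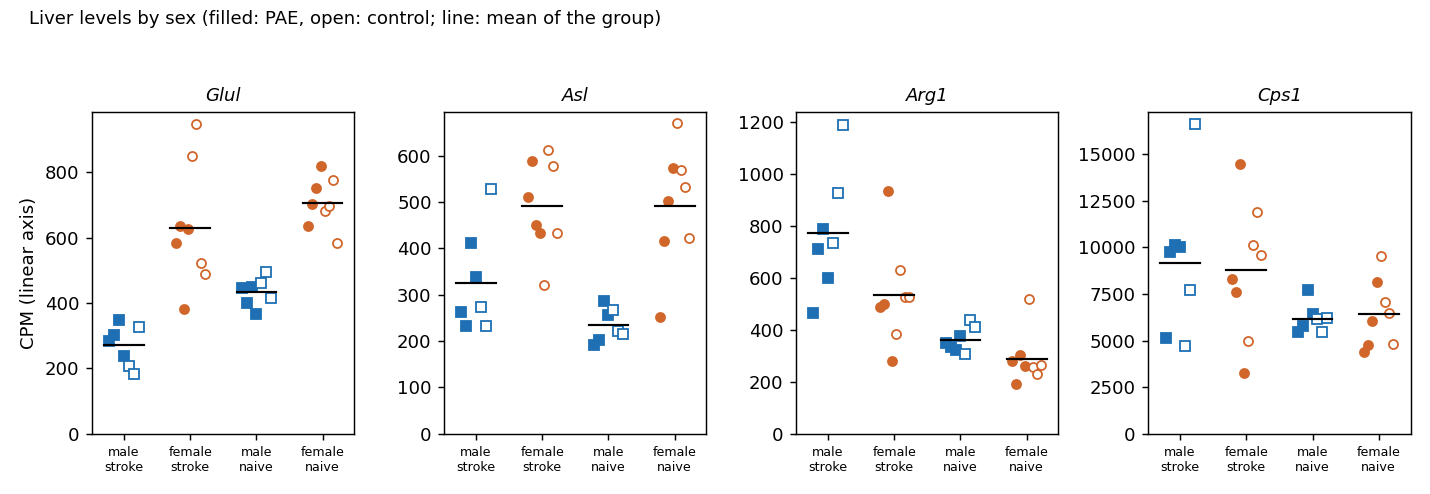
Liver level of Glul, Asl, Arg1 and Cps1 in CPM (linear axes) in males and, to their right, females, first of stroke and then of naive rats; filled symbols are PAE, open symbols control and lines group means. Glul sits lower in males in both states and Asl mostly so, and the Cps1 values of males and females overlap.

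Markers of cell types were counted against the 32.5% of all genes called between the sexes, 16% higher and 16.5% lower in males. Of 18 markers of pericentral hepatocytes, the cells that hold glutamine synthetase, 12 were lower and 1, Gstm1, higher in males. Their sum was 2281, 3582 and 5520 CPM in male livers, against 3805, 5443 and 8397 CPM in female livers. Oat, ornithine aminotransferase, had a log2 difference of −1.68 and Lect2, a secreted hepatocyte protein, one of −1.02. Of 14 periportal markers 2 were higher and 3 lower, a share near that of all genes. Kupffer cell and macrophage markers were lower in males for 6 of 12, with sums of 134, 377 and 516 CPM in male livers, against 303, 495 and 750 CPM in female livers. Liver endothelial markers were lower for 5 of 7, with sums of 317, 512 and 732 CPM in male livers, against 495, 597 and 991 CPM in female livers. Pancreatic acinar markers summed to 1.30 to 5.199 CPM in male livers, against 19.7 to 166 CPM in female livers. This rested on Cpa1, a carboxypeptidase, with 0 to 0.291 CPM in male livers and 17.3 to 165 CPM in female livers, while the acinar markers Pnlip and Clps were at 0 in every liver of both sexes. Nuclear ribosomal RNA took 1.09 to 51.1% of counts in male livers and 0.626 to 12.2% in female livers. The calls of Glul, Asl and Arg1 held without the 3 libraries above 40%, at log2 differences of −0.94, −0.75 and 0.46; the part of the other marker lists in them was not tested.

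The fall of Glul with stroke was called in males and not in females. Glul had 182, 284 and 350 CPM in 7 male stroke livers, against 366, 445 and 496 CPM in 7 male naive livers, so that the groups did not overlap. It had 383, 605 and 946 CPM in 8 female stroke livers, against 584, 700 and 819 CPM in 8 female naive livers. The log2 change was −0.72 ± 0.16 in males (adjusted p = 0.00523) and −0.17 ± 0.14 in females (adjusted p = 0.558), where the test called 5.75% of all genes in males (3.4% higher, 2.35% lower) and 5.93% in females (4.07% higher, 1.86% lower). The difference between these changes, −0.54 ± 0.21, had an unadjusted p of 0.0162 and an adjusted p of 0.565 and was not called. The share of all genes that separate in males as Glul did was not measured. Changes within 1 sex were not refitted under the other settings. Nuclear ribosomal RNA took 17.9 to 51.1% of counts in control stroke males and 1.54 to 44.9% in control naive males. In PAE males it took 1.09 to 42.4% with stroke and 10.7 to 18.8% without. Its part in the male change of Glul was not tested. Arg1 (1.10 in males, 0.90 in females) and Got1 (1.87 in males, 1.26 in females) were called in both sexes. Otc was called in females (0.55 ± 0.16, adjusted p = 0.039) and not in males (0.47 ± 0.18, adjusted p = 0.112), and the difference between them, −0.08 ± 0.24, was not called. No gene of the 10 was called for the sex difference of the stroke response, where 0.126% of all genes were. Glul was the 1 gene of the 10 with an unadjusted p under 0.05, as were 1158 of all 15889 genes. DESeq2 called 0 of the 10.

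Some other genes of nitrogen handling and amino acid breakdown rose in stroke livers over both exposures, where 8.55% of all genes were called higher and 5.84% lower. Of 35 other nitrogen and glutamine genes 30 were tested, and 11 were higher and 0 lower, with a median log2 change of 0.29, against −0.01 over all genes. They included Asns, asparagine synthetase (1.42 ± 0.24, adjusted p = 0.000107), and the amino acid transporters Slc38a4 (0.73), Slc38a3 (0.48) and Slc38a2 (1.85). Of 55 amino acid breakdown genes 25 were higher and 1, Kynu, lower, with a median of 0.31. Gldc, which cleaves glycine, rose by 1.14 ± 0.14 on the log2 scale (adjusted p = 1.50e-06), Tdo2, which opens the ring of tryptophan, by 1.04 ± 0.14 and Sds, which deaminates serine, by 2.64 ± 0.40. Tst, a mitochondrial sulfurtransferase, rose by 0.88 ± 0.09 (adjusted p = 8.08e-08).

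Of 18 regulators of urea cycle transcription, 1 was higher and 2 were lower in stroke livers, a share near the 14.4% called over all genes. Ppargc1a, a coactivator of fasting metabolism, had a log2 change of 2.34 ± 0.35 (adjusted p = 7.67e-05). Nfya, a subunit of the factor NF-Y, fell by 0.41 ± 0.10 and Creb3l3, a membrane-bound liver transcription factor, fell by 0.33 ± 0.08.

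Markers of cell types and zones were counted in the same comparison, against the 14.4% of all genes called, 8.55% higher and 5.84% lower. Of 14 periportal markers 6 were higher, among them Sds and Hsd17b13 (0.75), and 1, Cyp2f4, lower, with sums of 8389, 11546 and 16759 CPM in stroke livers, against 8663, 10534 and 12493 CPM in naive livers. Of 18 pericentral markers Cyp2e1 was lower (−0.79) and Slc1a4 (1.30) and Cyp1a2 (0.71) were higher, a share near that of all genes, with sums of 2281, 4316 and 7180 CPM in stroke livers, against 3188, 5045 and 8397 CPM in naive livers. Hepatocyte markers were higher for 8 of 12, with sums of 118791, 151400 and 184192 CPM in stroke livers, against 104647, 129078 and 148837 CPM in naive livers. All 4 neutrophil markers tested, of 8 listed, were higher, with sums of 2.01, 4.10 and 7.31 CPM in stroke livers, against 0.490, 1.13 and 1.99 CPM in naive livers. Camp was at 0 in every stroke liver and Elane at 0 in every naive liver. Of 12 Kupffer cell markers 1, Lyz2, was higher, no more than the share of all genes. The part of these marker lists in the changes of the 10 genes was not tested.

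Within groups, most of the liver genes varied together from library to library. After subtraction of the mean of each exposure, stroke and sex group, 41 of the 45 pairs had a positive Pearson r over 30 livers, with a median r of 0.610 and a range of −0.133 to 0.927. The permutation test within groups (100000 resamples, two-sided, adjusted over the 45 pairs) called 25 positive and 0 negative pairs. Ass1 and Gls2 had r = 0.927 (rho = 0.889, adjusted p = 0.000112), Ass1 and Got1 0.915 (rho = 0.895), Gls2 and Got1 0.878 (rho = 0.818), and Cps1 and Ass1 0.856 (rho = 0.903). Glul had r between −0.133 and 0.398 with the others and Nags between −0.002 and 0.405, and no pair of either was called. Without the 2 livers farthest from the median of the first gene of a pair, 24 pairs were called, 23 of them shared. The pair not shared was Arg1 and Nags (r = 0.501, adjusted p = 0.0444 in the same permutation test). Without the 3 livers above 40% ribosomal RNA, 26 were called, 25 of them shared. All pairs share libraries and library size scaling. The share of called pairs among other liver genes was not measured, so these counts are not known to be particular to these genes.

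**Figure D4:**
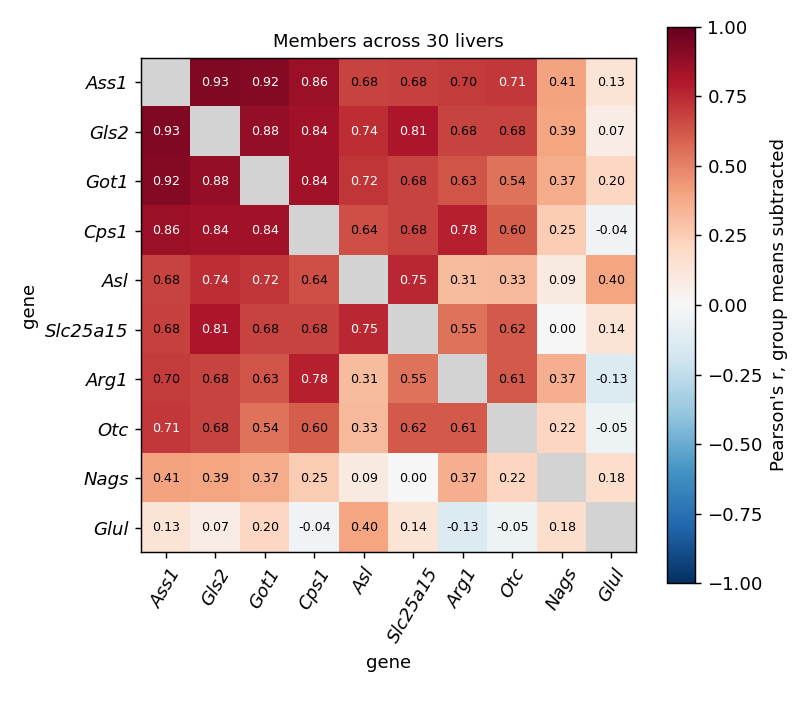
Pearson r between the 10 genes over 30 livers, from log2 CPM after subtraction of the group means, with r printed in each cell and on a colour scale from −1 to 1. The pairs among Cps1, Ass1, Gls2 and Got1 are strong, and the rows of Glul and Nags are pale.

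The genes most like each member over the 30 livers, by Pearson r of log2 CPM among 11395 genes and with group differences left in, were as follows. For Arg1 they were Tdo2 (0.918), Edem1 (0.857) and Retreg1 (0.852), and for Got1 they were Sds (0.882), Gls2 (0.875) and Mat1a (0.867), the methionine adenosyltransferase of liver. Cps1 was nearest to Mat1a (0.865), Gls2 (0.85) and Enpp3 (0.842), and Gls2 to Mat1a (0.878), Got1 (0.875) and Cps1 (0.85). Ass1 was nearest to Cps1 (0.815), Gls2 (0.815) and Gnmt (0.807), and Slc25a15 to Bach1 (0.857), Coq10b (0.853) and Gls2 (0.849). Otc was nearest to Slc25a44 (0.835), Dhtkd1 (0.83) and Mccc2 (0.808), of which Dhtkd1 and Mccc2 are enzymes of lysine and leucine breakdown. Asl was nearest to Ca12 (0.855), Mtarc2 (0.827) and Tcn2 (0.818), Glul to Taz (0.868), Bgn (0.865) and Tmtc4 (0.860), and Nags, with the lowest values, to Mlx (0.716), Zbtb7a (0.711) and Pgp (0.668).

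In mesenteric adipose tissue Ass1 and Arg1 were lower in stroke rats over both exposures. Otc, with 0 to 13 counts per library, did not pass the filter, and 9 genes were tested among 18546, of which 18.4% were called, 10.7% higher and 7.74% lower. Ass1 had 0.762, 1.52 and 4.59 CPM in stroke rats, against 0.804, 3.49 and 11.5 CPM in naive rats, a log2 change of −1.17 ± 0.33 (adjusted p = 0.0149). Of the stroke libraries 14 of 15 lay below the naive mean of their own exposure and sex. Arg1 had 4.11, 8.70 and 11.4 CPM in stroke rats, against 7.76, 11.2 and 23.7 CPM in naive rats, a log2 change of −0.54 ± 0.15 (adjusted p = 0.013), with 12 of 15 stroke libraries below their own naive mean. Glul had 644, 953 and 1706 CPM in stroke rats, against 630, 1220 and 1658 CPM in naive rats and was not called. Asl had a log2 change of 0.16 ± 0.06 (adjusted p = 0.0506) and passed the threshold in 1 other setting and in 7 leave-outs of a single library.

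**Figure D5:**
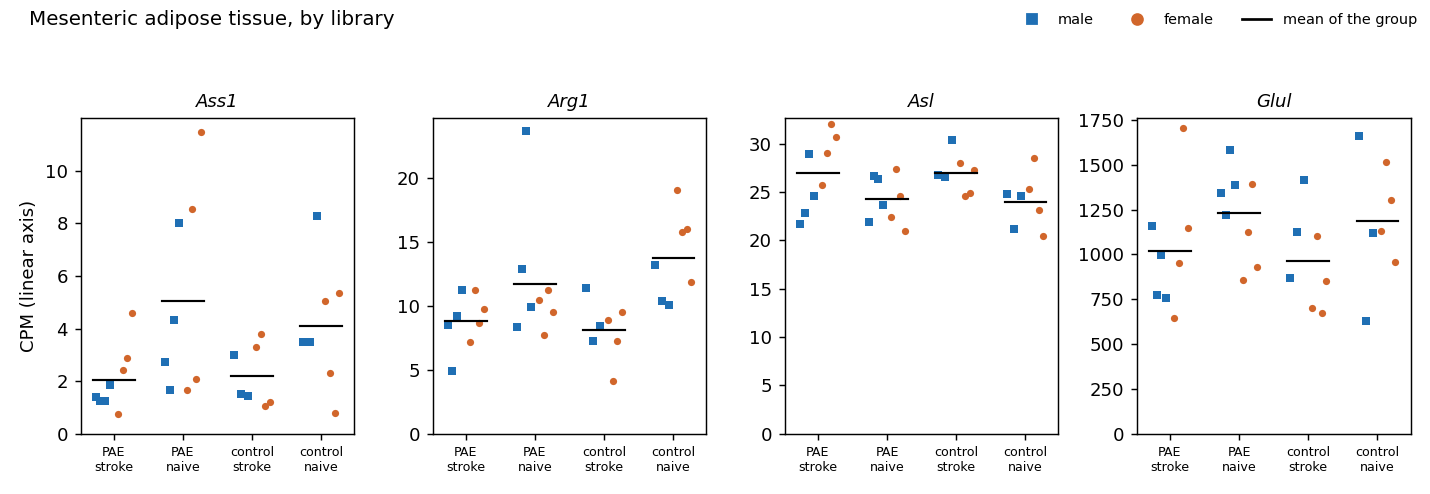
Mesenteric adipose level of Ass1, Arg1, Asl and Glul in CPM (linear axes) in each library, in PAE stroke, PAE naive, control stroke and control naive groups from left to right; squares are males, circles females and lines group means. Ass1 and Arg1 extend lower in stroke rats, with overlap between the groups.

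Taken by exposure in adipose tissue, edgeR called 0 of the 9 genes in PAE rats, where it called 6.28% of all genes, and 0 in control rats, where it called 4.22%. At an unadjusted p under 0.05 there were 1 in PAE rats and 2 in control rats. Over all 18546 genes there were 4454 in PAE rats and 3839 in control rats, so both counts were near or below that share. DESeq2 called Ass1 in PAE rats and Arg1 in control rats, as did the authors' deposited table, with a log2 change of −0.85 (adjusted p = 0.0284) for Ass1 and −0.63 (adjusted p = 0.00932) for Arg1. Between PAE and control naive adipose tissue edgeR and DESeq2 called 0, and 0 of the 9 had an unadjusted p under 0.05. Cps1 was near 0, with 0 to 73 counts per stroke library and 0 to 3 per naive library. Control stroke male 1 held 73 counts, PAE stroke male 2 held 63 and PAE stroke male 3 held 15. Cps1 passed the filter on low counts through these libraries, all of stroke males. In males alone, where 7.35% of all genes were called, edgeR called it higher in stroke rats (adjusted p = 0.0279). That call rests on the libraries that carried the gene through the filter, so it is not evidence of a rise. Cps1 is also made by gut epithelium, whose markers summed to 1.86, 2.60 and 23.4 CPM in stroke rats, against 1.96, 3.43 and 7.13 CPM in naive rats, and their part in the Cps1 counts was not tested.

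Markers of cell types in adipose tissue were counted for stroke against naive over both exposures. That test called 18.4% of all genes, 10.7% higher and 7.74% lower. Adipocyte markers were lower for 4 and higher for 1 of 12, with sums of 11497, 17207 and 23455 CPM in stroke rats, against 13255, 21379 and 27909 CPM in naive rats. Macrophage markers were higher for 4 of 11, with sums of 516, 965 and 2220 CPM in stroke rats, against 471, 680 and 2888 CPM in naive rats. Neutrophil markers were higher for 3 and lower for 1 of 5, with sums of 42.9, 76.7 and 166 CPM in stroke rats, against 18.7, 46.3 and 137 CPM in naive rats. Their part in the changes of Ass1 and Arg1 was not tested.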

How the data were processed

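Total RNA from flash-frozen tissue was made into stranded, ribosomal RNA-depleted libraries (TruSeq Stranded Total RNA with Ribo-Zero) and sequenced in paired reads of 150 nt, per the labels' protocols. The submitters' processing notes name Trimmomatic, HISAT2, HTSeq and DESeq2, with no versions, and the build rn7; whether counting used the strand is not given in the sources used here. The authors deposited raw read counts per gene for each of 60 libraries, and tables of log2 fold changes and adjusted p-values for their own comparisons; the 90 normalized columns in those tables were not used. Depth is the total count per library, and precision rests on the spread between libraries.

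Counts were fitted per tissue with edgeR 4.0.16 in R 4.3.3 (limma 3.58.1; TMM scaling, filterByExpr over the 8 groups, robust glmQLFit, glmQLFTest), with 1 mean per exposure, stroke and sex group. All 30 libraries of a tissue shared 1 estimate of the spread, and p-values were adjusted over all genes tested. DESeq2 1.42.0 was an alternative, beside other scaling, filters, sample sets and each library left out. On simulated liver counts for stroke against naive over both exposures (15643 genes), 46% of genes changed 1.5-fold and 90% of those changed 2-fold were recovered, and 8 of 175 calls were false. The simulated counts held no sex or exposure effects, and took each gene's spread from the trend over genes of like level. These rates may therefore not hold for genes that vary more than that trend. No 2 libraries of a group were duplicates. The members, lists and tests were chosen with earlier results of these data known. The genes named were the 10 members in every comparison, the isoenzymes Arg2 and Got2 and the carrier Slc25a13, up to 4 called genes of each list with the smallest adjusted p, and the 3 genes most like each member; other list members given by name are those called in a small count. For members of the lists, symbols were matched as in the files. Promoter sequences and coordinates are RefSeq's on GRCr8, and no coordinates of the authors' build are given.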

Additional observations from a re-analysis of the deposited data

Results flagged for a closer look

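Of 114 sets of 4 libraries of 1 tissue, exposure, stroke state and sex examined for the 10 genes, 2 held a library whose gap to its nearest neighbour was large for the range of its group. Chance gives about 1 in 20, or 5.7 of 114. Cps1 in the liver of PAE stroke male 1 was 5131 CPM, with the other 3 PAE stroke males at 9740 to 10103 CPM. Arg1 in the liver of control naive female 1 was 516 CPM, with the other 3 control naive females at 228 to 263 CPM.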

How the results depend on the processing

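Over both exposures the 6 liver calls held in every setting and with any 1 library left out, except Glul with the sexes pooled (−0.32, adjusted p = 0.368). Cps1 was gained there with DESeq2, without the libraries above 40% ribosomal RNA, and without any 1 of control naive female 1, control stroke female 1, control stroke male 1, PAE naive female 4, PAE stroke female 4 and PAE stroke male 1. The 3 calls between males and females held throughout. Slc25a15 in PAE livers was lost with no filter (adjusted p = 0.0658), with the sexes pooled (0.0551) and without any 1 of PAE naive females 1, 2 and 4, PAE naive males 1 to 3, PAE stroke females 1 to 3, PAE stroke males 1, 3 and 4, control naive female 3 and control naive males 1 to 3 (adjusted p up to 0.094). Glul in PAE livers was gained with DESeq2, on the groups alone, with the ribosomal RNA genes removed and without control stroke male 3 or PAE stroke male 3, and in control livers without control stroke male 3 (−0.605). Otc in control livers was gained in 3 settings and 7 leave-outs, and in PAE livers without PAE stroke female 4. The number of liver calls in controls was 2, and 1 to 3 with 1 library left out, 1 without control naive male 3. In adipose tissue the count in controls was 0, and 1 (Arg1) with DESeq2, on the groups alone and without PAE naive male 3 or PAE stroke male 2, a range of 0 to 1 with 1 library left out. The count in PAE rats was 0, and 1 (Ass1) with DESeq2, without the library above 40% ribosomal RNA (PAE naive female 1) and without any 1 of PAE naive female 3, PAE naive male 2, PAE stroke female 4 and control naive female 3, also 0 to 1. Over both exposures in adipose tissue Cps1 was gained with the sexes pooled (3.20, adjusted p = 0.0157). This call too rests on the few stroke male libraries that carried Cps1 through the filter. Asl was gained there with the ribosomal RNA genes removed (0.16, adjusted p = 0.0498). It was also gained without control naive female 2 or control naive male 3. Leaving out PAE naive female 2, PAE naive male 2 or 3, PAE stroke female 1 or PAE stroke male 1 also gave it. Uncalled estimates crossed 0. For male against female in liver, Gls2 was 0.00095 without the libraries above 40% ribosomal RNA and −0.195 to 0.00690 with 1 library left out, Cps1 −0.155 to 0.112 and Got1 −0.126 to 0.186. With stroke and 1 library left out, Nags in PAE livers was −0.110 to 0.0273, Ass1 in PAE livers −0.0290 to 0.429, Asl in control livers −0.0430 to 0.30 and Gls2 in adipose tissue −0.132 to 0.156. The cause was not tested. The labels do not say what the title numbers share, so they were used as names. A same-numbered pair was a stroke and a naive library of 1 exposure and sex. Correlations were −0.166 to 0.304 over 15 liver pairs, 9 of them over 0.1 and 10 best with their own number, and −0.286 to 0.279 over 15 adipose pairs, 10 of them over 0.1 and 6 best with their own number. Each stroke library had 3 or 4 naive libraries to match, and most liver pairs were best with their own number. A link between same-numbered libraries is therefore not excluded, and the main fit had no term for one. Between liver and adipose libraries of the same title code, r was 0.0222 to 0.207 over 30 pairs. Of these, 11 were best with their own code among all 30 adipose libraries. With a replicate block the counts of calls were 6 over both exposures, 2 in controls and 3 in PAE livers, and 2 in adipose tissue over both exposures. Male against female could not be fitted with it. The block joined libraries of 1 sex and number over both exposures, which is not the pairing that was correlated. Low counts limit Cps1 and Otc in adipose tissue, where most libraries held a few counts. Nags was also low there, with 2 to 27 counts per library. Median depth was 16.4 M counts in adipose and 17.4 M in liver libraries.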
